A study of Sus scrofa with 29 samples.

Results

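The genes described here build, hold and cut the extracellular matrix of the artery wall: collagens, laminins and nidogens, fibrillin, fibronectin and the SPARC proteins, integrins, and the metalloproteinases MMP, ADAM and ADAMTS with their TIMP inhibitors. They were taken by symbol from the platform annotation, with the brightest probe set (a group of array probes for 1 transcript) standing for each gene. This gave 55 genes, covered by 101 probe sets, of 6765 genes with a symbol and 23999 probe sets in all. Of the 55 genes, 28 had 1 probe set and 27 had several. ITGB1BP2 came in through its symbol, although it encodes an integrin-binding protein and not an integrin chain. Among matrix genes of general interest, COL1A1, COL4A1, COL18A1, LAMA4, NID1, HSPG2 and ELN had no probe set under those symbols and are not analysed here.

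The endothelium of an artery rests on a basement membrane, a sheet of laminin and type IV collagen networks tied together by nidogens, with type VIII collagen in the layer beneath. Integrins are cell-surface receptors made of an alpha and a beta chain, and they anchor the cells to laminin, collagen or fibronectin. Metalloproteinases cut matrix proteins and cell-surface proteins, and TIMPs block many of them, so the wall can be rebuilt in response to altered blood flow.

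RNA came from the luminal surface of the brachial artery, in the foreleg, and of the internal mammary artery, in the chest wall, of healthy pigs. Exercised pigs followed a treadmill programme of 16 to 20 weeks, which from week 10 reached bouts of 85 min on 5 days a week, and tissue was taken about 24 h after the last bout. Sedentary pigs were kept to their enclosures. The groups were brachial sedentary (7 pigs), brachial exercised (7), internal mammary sedentary (7) and internal mammary exercised (8), on 29 arrays from 15 pigs, of which 14 gave both arteries; the breed and age of the pigs are not given in the sources used here.

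All values are log2 array intensities, so a difference of 1 is a doubling; ± is the SD of a group or, after a fitted change, the SE. Changes and p-values come from limma with pig as a random block, adjusted by Benjamini-Hochberg over all 23999 probe sets, and a gene was called at an adjusted p under 0.05. There is no sequencing depth behind an array value, and precision is limited by how many arrays each group has. In such bulk scrapes, fewer cells of a type and less RNA per cell cannot be told apart.

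The scrapes held more than endothelium. The mean of 11 endothelial markers lay between 10.7 and 11.4 over all arrays, and that of 10 smooth muscle markers, which belong to the muscle layer below, between 11.2 and 13.2. PECAM1, an endothelial junction protein, lay between 13.6 and 14.2 on all arrays, whereas VWF, an endothelial clotting protein, was at 6.04 to 8.47 on 26 of the 29. The arrays of the 2 arteries also differed in spiked-in controls. Of 124 control probe sets, the 21 for the bacterial genes bioB, bioC and bioD were compared. All 21 were higher on every brachial than on every internal mammary array, by 0.61 to 0.88 on average, so array handling and artery cannot be told apart. The 28S/18S ratio, a measure of RNA quality, was 1.19 ± 0.076 in internal mammary sedentary, 1.33 ± 0.084 in internal mammary exercised, 1.38 ± 0.20 in brachial sedentary and 1.41 ± 0.17 in brachial exercised samples (SD).

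A set of 3 internal mammary arrays of sedentary pigs stood apart. MMP7, or matrilysin, a small secreted protease mostly known from epithelia, was at 9.09 (pig 11_1), 11.54 (15_1) and 12.26 (13_2) on them, against 4.07 to 5.53 on the other 26 arrays. The brachial arrays of the same pigs read 4.49, 4.76 and 5.43, within the range of the others. VWF was also outside the range of the other 26 arrays, at 11.09, 11.16 and 12.06, and so was NR2F2, a transcription factor of venous endothelium, at 11.27, 11.36 and 11.60 against 8.76 to 10.17. The 3 arrays were picked by their MMP7 values, so the place of MMP7 outside the rest follows from that choice. MMP2 lay below all others on these arrays (11.52, 11.57 and 11.83 against 11.88 or more). It was the only other member of the 55 for which the 3 arrays lay wholly to 1 side of the rest. Over the array this held for 200 of 23999 probe sets (0.833%). PECAM1 and CDH5 did not separate these 3 arrays. VWF and NR2F2 were chosen after their values were seen. The training calls below are given with and without these 3 arrays where they differ, and the artery calls that ended without them are named.

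**Figure D1:**
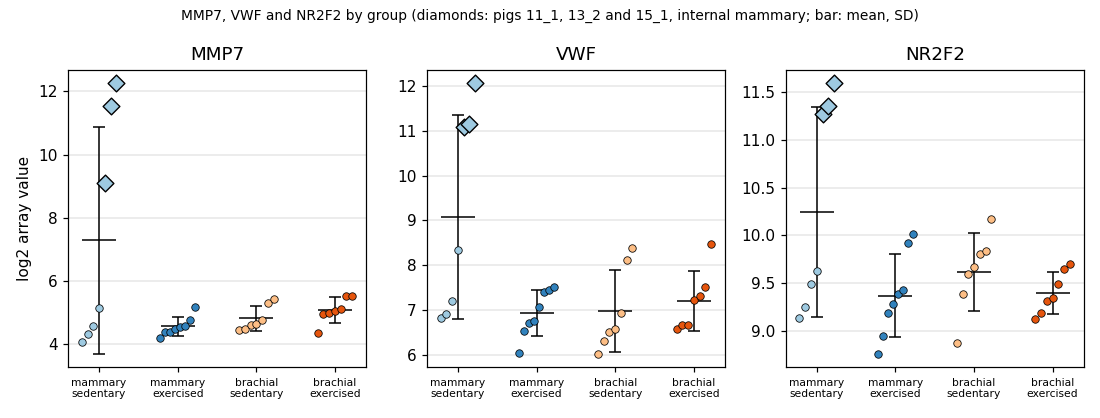
Log2 array values of MMP7, VWF and NR2F2 in each sample by group; points are pigs, the horizontal bar is the group mean and the whiskers are the SD. The diamonds mark the internal mammary arrays of the sedentary pigs 11_1, 13_2 and 15_1, which lie above every other array for all 3 genes.

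Training was followed by higher NID2 and COL8A1 in both arteries, and by higher MMP2 and ADAMTS1 in the average of the arteries, while no member fell. NID2 rose 1.55-fold and COL8A1 1.40-fold on average, MMP2 1.25-fold and ADAMTS1 1.34-fold. The other 51 members did not pass, among them all 7 fibrillar collagens, all 11 genes in the integrin groups and all 4 TIMPs. Counted over the array, 4.68% of probe sets were called in the average of the arteries and 2.88% were called higher, against 4 of 55 members. Of the 6765 genes with a symbol, each by its brightest probe set, 316 were called higher and 195 lower. In the share called, the members were close to all such genes. All 4 called members had a mean level of 9 or above. At that level 4 of 25 members were called, against 7.99% of all probe sets called and 4.6% called higher. In the brachial artery 2 members were called, with 1.63% of all probe sets, and in the internal mammary artery 2, with 0.596%; they were NID2 and COL8A1 in both. LAMC1, a laminin chain, was represented by a probe set at -0.06 (adjusted p = 0.739), while 1 of its other 3 probe sets, at a mean level of 7.95, rose by 0.43 (adjusted p = 0.0327). The median change over all members, 0.0085, was close to that of all probe sets, 0.0095.

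**Figure D2:**
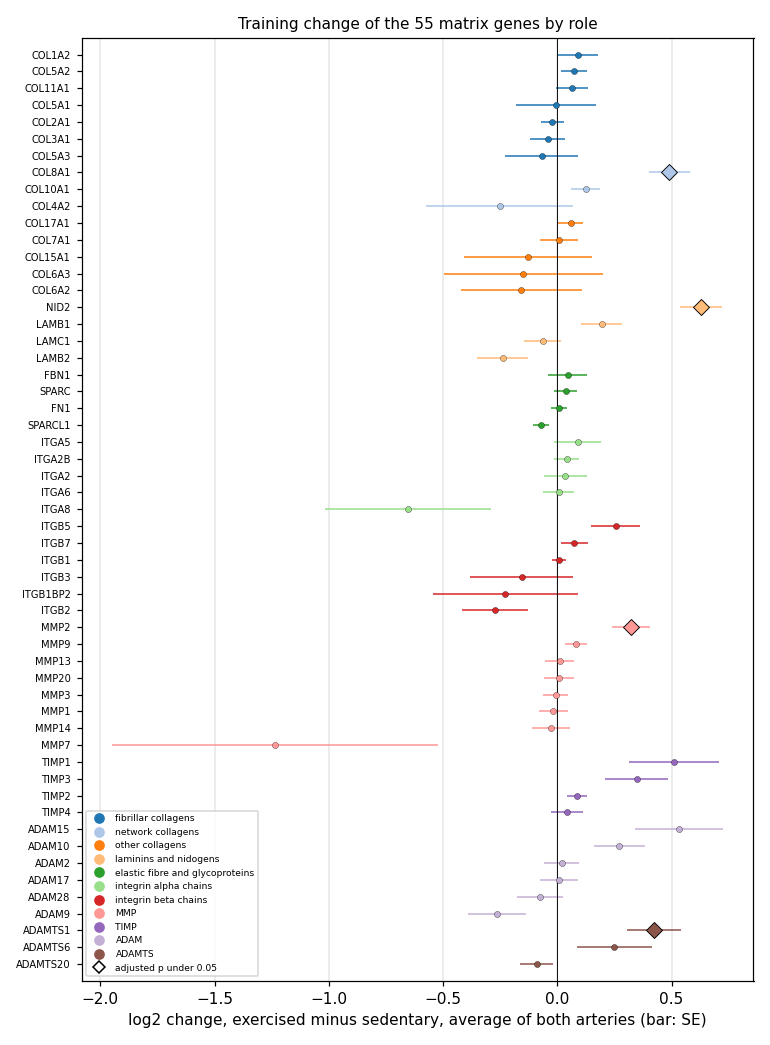
Fitted log2 change with training, averaged over both arteries, for each of the 55 genes, coloured by role; whiskers are the SE and diamonds mark an adjusted p under 0.05. The 4 called genes, NID2, COL8A1, ADAMTS1 and MMP2, all lie to the right of 0, and MMP7 has the widest whisker.

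NID2 encodes nidogen-2, a basement membrane glycoprotein that links laminin to type IV collagen. In the internal mammary artery its values ran from 10.34 through a median of 10.61 to 10.92 in sedentary pigs, and from 11.10 through 11.27 to 11.38 in exercised pigs. These groups did not overlap, and the share of all probe sets that separate training groups in this way is not given here. In the brachial artery the values were 10.51, 10.86 and 11.41 (lowest, median, highest) in sedentary and 11.25, 11.49 and 11.83 in exercised pigs. Here 5 of 7 exercised pigs lay above every sedentary pig. The fitted rise was 0.64 ± 0.11 in the internal mammary artery (adjusted p = 0.00928) and 0.62 ± 0.12 in the brachial artery (adjusted p = 0.0082), and 0.63 ± 0.091 on average (adjusted p = 0.000339). NID2 kept all 3 calls when each of the 15 pigs was left out in turn. Without the 3 arrays high in MMP7 the average rise was 0.60 (adjusted p = 0.0028), and that in the internal mammary artery alone was 0.57 (adjusted p = 0.0974).

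COL8A1 encodes the alpha-1 chain of type VIII collagen, a short network-forming collagen of the subendothelium. Brachial values ran from 11.76 through 12.21 to 12.62 in sedentary and from 12.59 through 12.71 to 12.91 in exercised pigs. The exercised pigs were tightly grouped, and 6 of 7 lay above every sedentary pig. Internal mammary values were 10.95, 11.44 and 11.85 in sedentary and 11.67, 11.81 and 12.05 in exercised pigs, with 4 of 8 exercised pigs above every sedentary pig. The fitted rise was 0.51 ± 0.11 in the brachial artery (adjusted p = 0.0218), 0.47 ± 0.11 in the internal mammary artery (adjusted p = 0.0415) and 0.49 ± 0.089 on average (adjusted p = 0.00219). Of its other 3 probe sets, 1 rose by 0.50 (adjusted p = 0.0194), and those that did not pass read 0.41 (adjusted p = 0.0562) and, at a mean level of 4.76, 0.18 (adjusted p = 0.125).

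The average rise of COL8A1 passed with each of the 15 pigs left out, and without the 3 arrays high in MMP7 it was 0.52 (adjusted p = 0.00249). Within 1 artery the calls were less firm. The brachial call ended without pig 10_5 (adjusted p = 0.0626), 12_5 (0.0581) or 17_1 (0.0503). The internal mammary call passed in 4 of 15 such fits; it ended without 10_1, 10_5, 11_1, 11_3, 12_2, 12_3, 12_5, 13_2, 15_2, 15_4 or 17_1, with adjusted p up to 0.103, and without the 3 arrays high in MMP7 (adjusted p = 0.0785). It also ended when the fit took in the 28S/18S ratio (0.39, adjusted p = 0.0855), and there TIMP3 and MMP2 passed instead (adjusted p = 0.0343 each).

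**Figure D3:**
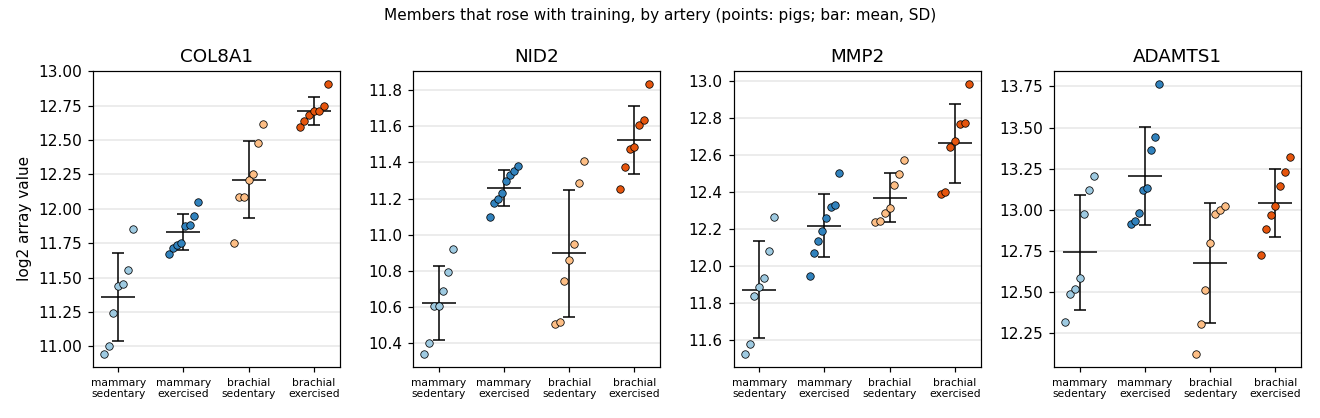
Log2 array values of COL8A1, NID2, MMP2 and ADAMTS1 in each sample by group; points are pigs, the horizontal bar is the group mean and the whiskers are the SD. NID2 separates the internal mammary groups fully, and for the other genes and for brachial NID2 the exercised and sedentary ranges overlap.

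MMP2 encodes gelatinase A, a protease that cuts denatured collagen and type IV collagen. Internal mammary values were 11.52, 11.88 and 12.27 (lowest, median, highest) in sedentary and 11.94, 12.22 and 12.50 in exercised pigs, and brachial values were 12.24, 12.31 and 12.57 against 12.39, 12.68 and 12.98. The ranges overlapped in both arteries, with 3 of 8 and 5 of 7 exercised pigs above every sedentary pig. The average rise was 0.32 ± 0.082 (adjusted p = 0.0212), and it passed with each single pig left out, with adjusted p up to 0.0496. The lowest 3 internal mammary values were those of the arrays high in MMP7, and without these arrays the rise was 0.23 (adjusted p = 0.106).

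ADAMTS1 encodes a secreted protease that cuts the proteoglycans versican and aggrecan. Its values were 12.31, 12.58 and 13.21 in internal mammary sedentary, 12.91, 13.12 and 13.76 in internal mammary exercised, 12.12, 12.80 and 13.02 in brachial sedentary and 12.72, 13.02 and 13.32 in brachial exercised samples. Exercised and sedentary pigs overlapped in both arteries. The average rise was 0.42 ± 0.12 (adjusted p = 0.0349), and its second probe set rose by 0.47 (adjusted p = 0.0462). The call ended without pig 10_1, 10_2, 10_5, 12_2, 12_5, 13_2 or 17_1, with adjusted p from 0.0558 to 0.0795, and without the 3 arrays high in MMP7 (0.40, adjusted p = 0.0961).

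The pigs were collected over 48 days, and the 4 rises were also fitted within the 8 pigs collected first and the 7 collected last. NID2 was higher by 0.68 in the first period and 0.55 in the last, COL8A1 by 0.59 and 0.36, MMP2 by 0.30 and 0.37, and ADAMTS1 by 0.41 and 0.44. All 8 differences were positive, and of them only that of NID2 in the first period passed (adjusted p = 0.0254). The 4 genes were called on these same pigs, so the shared sign is not an independent repeat of the rises. Each pig is either sedentary or exercised, so training cannot be tested within pigs. In a fit without the random pig effect, on 1 mean of both arteries per pig, NID2 (adjusted p = 0.00793) and COL8A1 (0.0313) passed, whereas MMP2 (0.0687) and ADAMTS1 (0.159) did not.

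TIMP1, TIMP3 and ADAM15 had average values as large as some of the called genes, but none of these passed. TIMP1, an inhibitor of most MMPs, was at 11.33, 11.80 and 13.77 in brachial exercised against 11.00, 11.55 and 11.68 in brachial sedentary samples, and at 11.04, 11.50 and 12.77 against 10.72, 11.50 and 11.55 in the internal mammary artery. In the brachial artery 6 of 7 exercised pigs lay above every sedentary pig, and in the internal mammary artery 4 of 8. The highest value in both arteries came from pig 12_5, and the average change of 0.51 ± 0.20 did not pass (adjusted p = 0.143). TIMP3, a TIMP that binds to the matrix itself, read 9.70 ± 0.39 in internal mammary exercised and 9.09 ± 0.42 in internal mammary sedentary samples (difference 0.62, adjusted p = 0.0913), and 9.59 ± 0.40 and 9.51 ± 0.23 in the brachial groups. Of the exercised pigs 6 of 8 in the internal mammary and 1 of 7 in the brachial artery lay above every sedentary pig for TIMP3. A second TIMP3 probe set, about as bright at a mean level of 9.47, rose in the internal mammary artery by 0.66 (adjusted p = 0.0398). ADAM15, a membrane-bound ADAM that carries an integrin-binding motif, differed by 0.53 ± 0.19 (adjusted p = 0.115). Brachial MMP9 differed by 0.20 (adjusted p = 0.0932), with 6 of 7 exercised pigs above every sedentary pig. Internal mammary MMP9 differed by -0.04 (adjusted p = 0.867).

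The largest negative value apart from MMP7 was that of ITGA8, the alpha-8 chain of a receptor found on smooth muscle, at -0.65 ± 0.36 (adjusted p = 0.35). Internal mammary values of ITGA8 spread from 9.28 to 12.73 in exercised and from 10.28 to 12.88 in sedentary pigs. All 10 smooth muscle markers had negative training values as well, with a median of -0.28, and none passed; their part in the ITGA8 value was not tested. For MMP7, exercised pigs read -2.73 ± 0.89 against sedentary pigs in the internal mammary artery (adjusted p = 0.153), and without the 3 high arrays 0.01.

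ITGB2, the beta chain of the leukocyte integrins, read 6.49, 6.85 and 7.52 in brachial exercised and 6.92, 7.51 and 8.01 in brachial sedentary samples, so that 5 of 7 exercised pigs lay below every sedentary pig. The difference of -0.60 ± 0.18 did not pass (adjusted p = 0.0847). In the internal mammary artery the groups were alike in range, 7.19 to 8.17 and 6.91 to 7.94. Macrophage markers moved the same way: of 8, 3 fell in the brachial artery (C1QC, FCER1G and TYROBP), with a median of -0.62 over the list, and the mean over the list lay at 8.44 to 8.99 in brachial exercised and 8.84 to 9.86 in brachial sedentary samples. With the macrophage mean as a covariate the brachial rises of NID2 (0.55, adjusted p = 0.194) and COL8A1 (0.46, adjusted p = 0.276) no longer passed, and neither did the average rise of MMP2 (0.27, adjusted p = 0.144); whether fewer macrophages play a part in these results was not tested.

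No difference in training response between the arteries was called for any member. The interaction gave 0 of 23999 probe sets at an adjusted p under 0.05 in limma (0%), with 1035 at an unadjusted p under 0.05, of which 5 were members (ITGB2, MMP9, COL17A1, MMP7 and TIMP3). The smallest adjusted p among the members was 0.922.

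The other genes of the matrix pathway, listed by function, gave few training calls. Of 11 measured genes for collagen folding and cross-linking 2 rose and none fell. They were BMP1, the protease that trims procollagen before fibrils form, by 0.58 ± 0.096 (adjusted p = 0.00102), and CRTAP, which helps to hydroxylate collagen prolines, by 0.14 ± 0.037 (adjusted p = 0.023). BMP1 also passed in each artery alone, by 0.60 in the brachial (adjusted p = 0.0119) and 0.55 in the internal mammary artery (adjusted p = 0.028). Of 8 further protease genes only CTSB, the lysosomal protease cathepsin B, rose (0.16, adjusted p = 0.0287). PLAT, tissue plasminogen activator, was at 0.61 ± 0.19 and did not pass (adjusted p = 0.057). Of 9 genes of the TGF-beta axis SMAD4, its shared signal transducer, fell by 0.14 (adjusted p = 0.0408), and of 7 adhesion partners of integrins none passed.

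Between the arteries, collagen chains made up most of the large differences, and nearly all were higher in the brachial artery. The 2 type VI collagen chains, which form beaded filaments around cells, differed most, COL6A3 by 1.36 ± 0.27 and COL6A2 by 1.32 ± 0.21 (2.57-fold and 2.49-fold). ITGA5, the alpha chain of the fibronectin receptor, followed at 1.05 ± 0.080, then the minor fibrillar chain COL5A3 at 0.99 ± 0.12, COL8A1 at 0.87 ± 0.069, COL5A1 at 0.76 ± 0.14 and COL5A2 at 0.56 ± 0.045. By the probe set that stands for each gene, only ADAM9, ADAM10 and ITGB2 were called lower. In all, 33 of 55 members were called in the average of sedentary and exercised pigs, 30 higher and 3 lower, and the array-wide shares were 54.3%, 31.8% and 22.5%. Of the 6765 genes with a symbol, 2054 were called higher and 1434 lower.

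These counts have to be read against that background, in which 13026 probe sets differed. Among the 15 members with a mean level below 6, 12 were higher in the brachial artery and none lower, with a median of 0.23; dim probe sets over the whole array also leaned that way, with 44.9% called higher and a median of 0.11. Such genes include MMP1, MMP3, MMP9 and MMP13, secreted proteases, and COL10A1, a cartilage collagen, at changes of 0.23 to 0.37. Among the 25 members at 9 or above, 12 were called higher and none lower, while over all probe sets of that level 18.6% were higher and the median was -0.04. When the arrays were equalized by cyclic loess, an added check, 27 of 55 members were called on average. The share of all probe sets called in that fit is not given here. Leaving out dim probe sets removed 14 members, and all 22 called members among the other 41 were called there too.

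**Figure D4:**
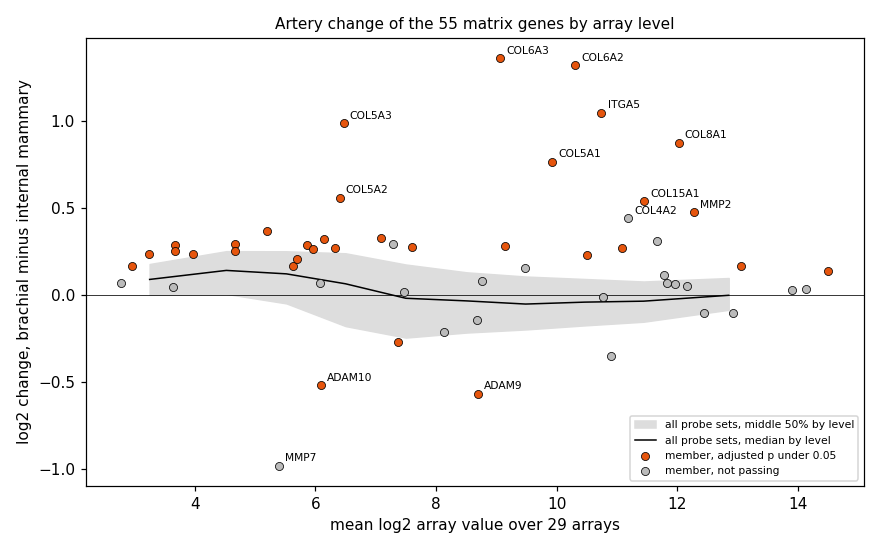
Fitted log2 change, brachial minus internal mammary, against the mean log2 level over 29 arrays for the 55 genes, with the median and the middle 50% of all probe sets in steps of level. The 12 called members under a level of 6 sit at 0.17 to 0.37, above the median line, and COL6A3, COL6A2, ITGA5, COL5A3, COL8A1 and COL5A1 lie further above it.

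ITGA5 separated the arteries fully. Its internal mammary values were 9.51, 10.36 and 10.58 in sedentary and 9.96, 10.36 and 10.61 in exercised pigs, and its brachial values 10.97, 11.33 and 11.41 and 10.93, 11.22 and 11.55. Every pig was higher in the brachial artery, by 0.70 to 1.81, and the fit gave an adjusted p of 1.35e-11. A second ITGA5 probe set, at a mean level of 7.33, showed 0.11 (adjusted p = 0.535).

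The arteries did not overlap for COL5A2, ITGB1 and FN1 either. The share of all probe sets that separate the arteries in this way is not given here, and the 21 spiked-in control probe sets above also did so. COL5A2, a chain of type V collagen that starts fibrils, lay at 5.80 to 6.34 on internal mammary and at 6.56 to 6.98 on brachial arrays, although its second probe set differed by -0.01 (adjusted p = 0.895). ITGB1, the beta chain shared by most matrix integrins, lay at 12.88 to 13.03 and 13.08 to 13.22, a change of 0.17 ± 0.023 (adjusted p = 7.9e-07). FN1, fibronectin, lay at 14.30 to 14.48 and 14.48 to 14.66, a change of 0.14 ± 0.026 (adjusted p = 8.67e-05). Its highest internal mammary value (14.4817) and its lowest brachial value (14.4848) nearly met.

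COL8A1 was higher in the brachial artery in 14 of 14 pigs, by 0.40 to 1.37 (adjusted p = 3.04e-11), so it differed both by artery and by training. Exercised internal mammary values (11.67 to 12.05) reached into the lower part of the sedentary brachial range (11.76 to 12.62). Its other probe sets disagreed on the artery: at 1.26 and 0.20 the change was positive and called, and at -0.23 it was negative and not called (adjusted p = 0.0526). NID2 was higher in the brachial artery in 13 of 14 pigs, with a fitted change of 0.27 ± 0.071 (adjusted p = 0.00217), and MMP2 in 14 of 14, with 0.47 ± 0.064 (adjusted p = 5.08e-07). ADAMTS1 did not pass at -0.10 (adjusted p = 0.348), while its second probe set fell by 0.37 (adjusted p = 0.00492).

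The type VI collagens varied from pig to pig far more than ITGA5. COL6A3 values were 7.06, 8.22 and 10.30 in internal mammary sedentary, 7.05, 8.32 and 9.41 in internal mammary exercised, 8.86, 9.95 and 10.60 in brachial sedentary and 8.33, 9.95 and 10.48 in brachial exercised samples, and the arteries overlapped. Within pigs the difference ran from -1.08 (pig 14_3) to 3.43 (pig 15_4), and brachial was higher in 11 of 14. COL6A2 ran from -0.63 to 2.89 in the same pigs, and ITGA8 from -2.81 to 1.90. COL15A1, a collagen of basement membrane zones, ran from -1.49 to 2.09; its average change of 0.54 (adjusted p = 0.0383) was not called without pig 10_1, 10_2, 10_5, 11_3, 11_4, 12_2, 13_2 or 15_4, with adjusted p up to 0.11. COL4A2, a chain of type IV collagen, also had its lowest difference in pig 14_3 (-1.84).

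Markers of the muscle and outer layers were near their low or high end in pigs 14_3 and 15_4, and how closely they ran with the collagens differed by gene. The smooth muscle mean differed within pigs from -1.39 to 1.54 (brachial higher in 9 of 14); it was -1.17 in pig 14_3 and 1.50 in pig 15_4. The fibroblast mean, over 6 measured markers, was higher in the brachial artery in 13 of 14 pigs, by 0.49 ± 0.37 (SD), and was -0.21 in pig 14_3 and 1.46 in pig 15_4. Of these markers only DPT, dermatopontin, itself a matrix protein, was called (2.23, adjusted p = 3.02e-10), and the mean of the other 5 differed by 0.15 ± 0.36 (SD), higher in 11 of 14 pigs. In pig 12_3 COL6A3 differed by 1.92, with a fibroblast difference of 0.09 and a smooth muscle difference of 0.20. In pig 15_2 COL6A3 differed by 0.83, with a fibroblast difference of 0.56 and a smooth muscle difference of -0.66. In pig 11_1 COL6A3 differed by -0.65, with a fibroblast difference of 0.22 and the lowest smooth muscle difference, -1.39. COL4A2 had the same sign as the smooth muscle difference in every pig except 17_1 (-0.19 against 0.16). It differed by -1.78 in pig 11_1 and by 2.06 in pig 13_2, where smooth muscle differed by -1.39 and 1.36. The part of muscle cells in these differences was not tested. The endothelial mean differed by -0.01 ± 0.28 (SD). With the fibroblast mean as a covariate COL6A3 (0.22, adjusted p = 0.579), COL6A2 (0.43, adjusted p = 0.117), COL5A1 (0.22, adjusted p = 0.268), COL7A1 (0.23, adjusted p = 0.0557), MMP14 (0.17, adjusted p = 0.151) and ADAM10 (-0.27, adjusted p = 0.0561) were no longer called, and COL15A1 turned to -0.33 (adjusted p = 0.31). ITGA5 (1.08), COL8A1 (0.79), COL5A3 (0.56) and COL5A2 (0.53) were still called in that fit. With DPT left out of the fibroblast mean, an added check, COL6A3 (1.04), COL6A2 (1.06), COL5A1 (0.62), COL7A1 (0.30), MMP14 (0.23) and ADAM10 (-0.45) were called, and COL15A1 was not (0.28, adjusted p = 0.192). With the smooth muscle mean as the covariate COL6A3 (0.95), COL6A2 (0.94) and COL5A1 (0.53) were called, and COL15A1 was not (0.13, adjusted p = 0.195).

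**Figure D5:**
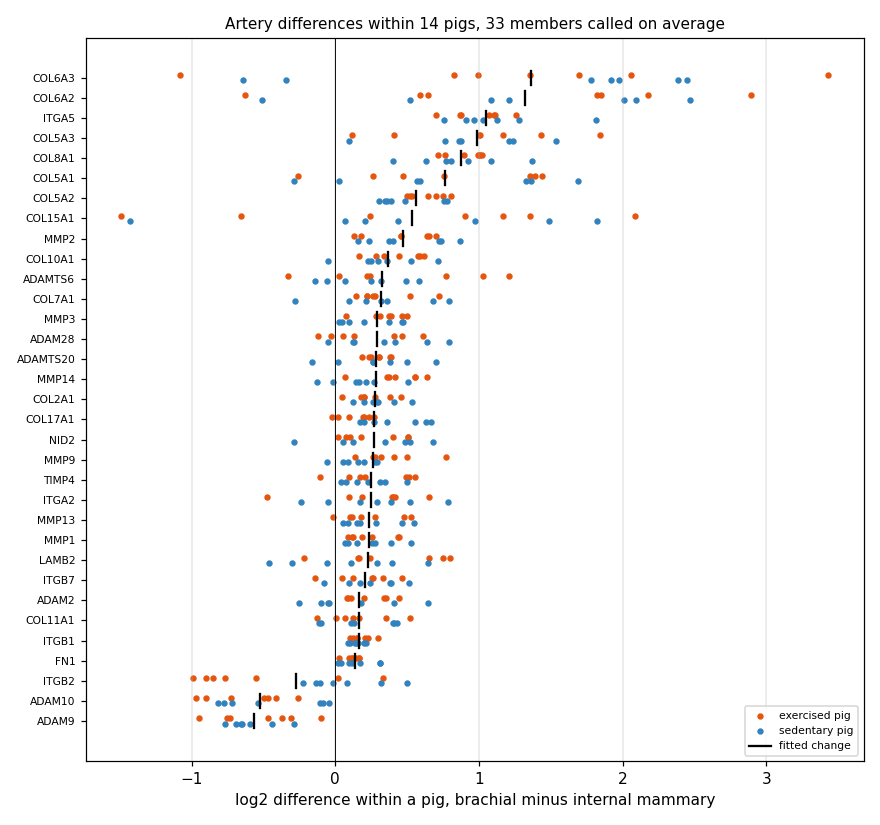
Log2 difference within each of 14 pigs, brachial minus internal mammary, for the 33 members called on average; points are pigs, coloured by training, and the black tick is the fitted change. All points of ITGA5, COL8A1 and COL5A2 lie above 0, all points of ADAM9 and ADAM10 lie below 0, and COL6A3, COL6A2 and COL15A1 spread to both sides.

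The type V chains also differed between probe sets. COL5A3 was higher in the brachial artery in 14 of 14 pigs, by 0.09 to 1.84, and all 3 of its probe sets were called higher. COL5A1 was higher in 12 of 14 pigs, and 5 of its 6 probe sets were called higher, at 0.13 to 0.76. COL1A2 (-0.14, adjusted p = 0.0757, mean level 8.68) and COL3A1 (0.07, adjusted p = 0.351, mean level 6.08), chains of the major fibrillar collagens, were not called. Neither were LAMB1, LAMC1, FBN1, SPARC or SPARCL1, at changes of 0.03 to 0.11. Dimmer probe sets of 3 of these genes were called, LAMB1 with a fall by 0.67 (adjusted p = 4.05e-08, mean level 9.10), SPARC with a rise of 0.34 (adjusted p = 4.11e-08, mean level 7.51) and SPARCL1 with a rise of 0.18 (adjusted p = 0.00155, mean level 3.45). The second COL1A2 probe set, at a mean level of 4.19, had the opposite sign to the first and was not called (0.19, adjusted p = 0.0546).

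ADAM9 and ADAM10, sheddases that cut proteins off the cell surface, were lower in the brachial artery in 14 of 14 pigs each. ADAM9 lay at 8.37 to 10.00 on internal mammary and 7.80 to 9.35 on brachial arrays, a fitted fall by 0.57 ± 0.099 (adjusted p = 2.23e-05), and 3 of its 4 probe sets were called lower. ADAM10 lay at 5.93 to 6.91 and 5.17 to 6.28, a fall by 0.52 ± 0.087 (adjusted p = 1.15e-05). ADAM17 was not called at 0.08 (adjusted p = 0.313), but its dimmer probe sets disagreed. The probe set at a mean level of 5.26 was called at -0.60 (adjusted p = 1.18e-06), and that at 3.75 was called at 0.15 (adjusted p = 0.0413). TIMP2 and TIMP3 were not called either, while 1 of 2 TIMP2 probe sets was called lower and 2 of 3 TIMP3 probe sets higher. ITGB2 fell by 0.27 on average (adjusted p = 0.0413), but the call ended without pig 10_1, 10_2, 10_5, 11_4, 12_2, 12_5, 13_2, 15_1, 15_2, 15_4 or 17_1, with adjusted p up to 0.088, and with the macrophage mean as a covariate the value was 0.04.

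The artery calls of sedentary and of exercised pigs were compared next. Of 55 members 28 were called in each (34.8% of all probe sets in sedentary and 41.2% in exercised pigs), and 23 were called in both, 82.1% of each list, all in the same direction. Over all probe sets 6741 were called in both, 80.8% of the sedentary and 68.2% of the exercised calls, and 6740 of these had the same direction. Called in sedentary pigs alone were ADAM28, COL17A1, ITGA2, MMP7 and TIMP3, and in exercised pigs alone ADAM2, ADAMTS6, ITGB2, LAMB2 and MMP14. The test of the difference is the interaction above, which called none of them. The sedentary MMP7 value of -2.48 (adjusted p = 0.0163) rested on the 3 high arrays: it ended without pig 11_1 (adjusted p = 0.0531), 13_2 (0.0664) or 15_1 (0.0803) and was 0.26 without all 3 arrays (adjusted p = 0.304). Without these arrays 19 members were called in sedentary and 31 in exercised pigs, and the shares of all probe sets in that fit are not given here. The sedentary calls of ADAM10, ADAMTS20, FN1, ITGA2, MMP1, MMP9, NID2 and TIMP4 also ended there, as did the averaged artery calls of ADAM2 and ADAMTS6.

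Among the other pathway genes, LOX, the enzyme that cross-links collagen and elastin, was far lower in the brachial artery. Its group means were 9.70 and 9.67 in brachial exercised and sedentary and 11.77 and 11.55 in internal mammary exercised and sedentary samples, a fall by 1.97 ± 0.13 on average (adjusted p = 3.9e-13). LOX was lower where COL6A3, COL5A3 and COL8A1 were higher, and 1 other gene of its list, LOXL4, was called (0.23, adjusted p = 0.0171), of 11 measured. BSG, a membrane protein known to induce MMPs, was higher by 0.77 ± 0.042 (adjusted p = 1.21e-14). It was 1 of the 4 called higher among the 8 further protease genes, of which 1 was lower. In the TGF-beta axis 3 of 9 were higher and 2 lower, the latter TGFB2, a ligand (-0.66), and TGFBR3, a co-receptor (-0.75).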

How the data were processed

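The authors deposited 1 log2 intensity per probe set, computed from single-colour porcine arrays; affy is named in the submitters' processing notes without a version, and the summary method and normalization are not given in the sources used here. Of 24123 probe sets 124 were controls, 10069 of the others had 1 symbol, 198 several and 13732 none. All 55 members matched the reference genes by Entrez identifier with the same symbol. Titles and treatment tags gave the groups; they were also followed for the 8 exercised internal mammary samples, whose source names say sedentary. The series text gives the unpaired pig a brachial array alone, whereas the samples show exercised pig 12_2 with an internal mammary array alone; the samples were followed.

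Values were fitted as deposited in limma 3.58.1 (R 4.3.3, with the package data.table, version 1.17.8) with a mean for each of 4 groups and a random pig effect (consensus correlation 0.255), tested on simulated data first. Figures used matplotlib in Python. Both arteries come from the same animals per the labels; after removing group means, the correlation of a pig's arteries had a median of 0.190 and exceeded 0.1 in 9 of 14 pigs. Alternatives were no pig block, a fixed one (each artery fitted alone for training in it, and means or differences of both arteries per pig for the other comparisons), array scaling, weights, dim probe sets left out (33.3%), covariates, collection period and each pig left out; cyclic loess, leaving out the 3 arrays high in MMP7 and the fibroblast covariate without DPT were added after seeing the data. Named genes were, in each comparison, the 12 largest called rises and falls or, with fewer than 10 called, all called and the 3 smallest p in each direction; the brightest and the smallest p of each role; a fixed list of matrix genes; and up to 3 genes of each pathway list. The members and lists were chosen with earlier results of these data known.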

Additional observations from a re-analysis of the deposited data

Results flagged for a closer look

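Among 176 checks of a named member in a group of samples, 12 had 1 pig far from the rest of its group. Chance alone flags about 1 in 20 such groups. ITGB3, the beta chain of the vitronectin receptor, was flagged most often: pig 12_3 stood high in both arteries, at 9.78 in brachial sedentary and 10.27 in internal mammary sedentary samples, where the next highest pigs were at 8.30 and 8.29, and pig 12_5 stood high in brachial exercised samples at 8.46. The same pig 12_3 was high for ADAM9 in brachial sedentary samples (9.35), and pig 12_5 was high for LAMC1 in brachial exercised (12.38) and for COL5A3 in internal mammary exercised samples (6.80).

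TIMP1 had a low pig in each sedentary group, 11_1 in the brachial (11.00) and 11_4 in the internal mammary artery (10.72). In internal mammary exercised samples COL5A1 was low in pig 15_4 (9.15) and ITGB2 was high in pig 12_2 (8.17). In internal mammary sedentary samples COL7A1 was high in pig 11_1 (6.35) and MMP1 was low in pig 15_1 (2.90).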

How the results depend on the processing

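Counts below are called members, of 55 except without dim probe sets (41). The share of all probe sets called in each fit is not given here, so a change in these members cannot be told apart from one over the whole array. For training in the brachial artery the main count of 2 became 0 in the fits that stand for a fixed replicate block (training is not paired within pigs, so each artery was fitted alone, or the mean of both per pig), with the macrophage covariate, and within either collection period; leaving out 1 pig gave 1 to 3. In the internal mammary artery 2 became 1 without a replicate block, in the artery fitted alone, with arrays centred on their medians or with the mean of a gene's probe sets, and 0 within either period or without the 3 arrays high in MMP7; leaving out 1 pig gave 1 to 2. On average 4 became 2 with means per pig, 1 in the first period, 0 in the last and 2 without the 3 arrays. For artery, 28 in sedentary pigs became 18 without dim probe sets (14 members were removed, and the 18 are all of the called ones left), 17 and 12 in the first and last period and 18 under cyclic loess; 28 in exercised pigs became 16 with the fibroblast covariate and 17 and 16 within periods. The artery average stayed within 1.5 times of 33 in every fit run. The values that changed sign were MMP7 in sedentary pigs (0.26 without the 3 arrays), ITGB7 in exercised pigs (-0.0051 with the mean of its probe sets), ITGB2 (0.0394, macrophage covariate) and COL15A1 (-0.33, fibroblast covariate). Fits within periods hold fewer pigs; apart from the dim probe sets, the cause was not tested for the others. With no scanner files used here, signal over background is not known per probe set.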
